A study of Mus musculus with 15 samples.

Results

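Interferon-stimulated genes were followed in cultured mouse hepatocytes that had received 1 of 4 isoforms of the bile acid receptor FXR. The genes came from a list of 43 well-known members of this response, and a listed gene counted as measured where the array had a probe set annotated to that gene alone. This held for 37 of the 43, out of 18820 genes measured in all, and the other 6 (Oas1g, Ifi44, Gbp6, Igtp, Parp9 and Dtx3l) were not analysed here. A gene with several probe sets was represented by the probe set that was brightest on average across the 15 arrays. Only Irf1 had more than 1 among the members, and its dimmer probe set did not pass the test in any comparison.

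The cells were primary hepatocytes of male C57BL/6J mice, isolated by collagenase perfusion and a Percoll gradient and plated on collagen. They were transduced overnight with an adenovirus carrying human FXRα1, FXRα2, FXRα3 or FXRα4, each of which also carried GFP under a separate CMV promoter, or with a control adenovirus for GFP alone. RNA was taken 36 h after transduction and read on 15 Affymetrix whole-transcript arrays, 3 for each of the 5 groups. The isoforms vary at 2 places: the MYTG insert near the DNA-binding domain is present in FXRα1 and FXRα3 and missing from FXRα2 and FXRα4, and the N-terminus is longer in FXRα3 and FXRα4. Dexamethasone and insulin were left out of the medium after transduction in all groups, and every group, the control included, had received a virus. No age is given. The human receptors were supplied by a virus to mouse cells, so the groups model added receptor and not the mouse gene's own isoforms. The amount of receptor in each group was not compared here, so amount and isoform cannot be told apart. Whether the replicates are separate animals, separate cultures or repeats of 1 preparation is not stated, so the p-values reflect the spread between these arrays, which may be technical.

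Interferons are secreted when a cell senses foreign nucleic acid. Type I interferons bind a receptor whose JAK kinases phosphorylate STAT2, which joins IRF9 in a complex that binds the interferon-stimulated response element (ISRE) at target promoters, while interferon gamma acts through the GAS element. The induced genes include the sensors and transcription factors of the pathway itself, enzymes that attach the ubiquitin-like protein ISG15, and effectors that block viral RNA, translation or trafficking. Hepatocytes carry interferon receptors and respond to them, while FXR in hepatocytes is best known for control of bile acid synthesis and transport.

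Values are log2 expression as deposited, between 1.93 and 13.8 over all probe sets, and the array medians lay between 4.92 and 5.01. With 3 arrays per group, their number limits the precision. Of the measured members, 14 lay below the median gene by mean level and 23 above it. All 9 measured hepatocyte markers were above the median gene, with a median log2 level of 11.3 to 11.7 over the arrays. Markers of Kupffer cells (12 of 13), lymphocytes (11 of 11), neutrophils (6 of 6), sinusoidal endothelial cells (9 of 10) and stellate cells (9 of 10) were nearly all below it. Plasmacytoid dendritic cell markers were less uniform, with 3 of 5 below it.

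Promoter motifs were counted to describe the members, which were listed as well-known interferon-stimulated genes. A high share of interferon motifs among them is therefore not a test. RefSeq promoter sequences (GRCm38.p6) matched 29 of the 37, each from 250 bases before the transcription start to 50 bases after it. The ISRE core GAAANNGAA, searched on both strands, was present in 15 of the 29 (51.7%), against 9.76% of all 27025 genes with such a promoter. The GAS letters TTCNNNGAA, which read the same on both strands, were in 7 (24.1%, against 9.55%). Matches of the ISRE core and GAS can overlap in part. The centre of the inverted repeat bound by FXR, GTCANTGAC, was found in 0 of the 29 and in 0.463% of all genes. A match is a description of the letters and shows no binding. The sequences below are the 150 bases before the start on the gene's own strand, with ISRE core matches in capitals. Gbp2 is shown as a member that fell with all isoforms, Ifit1 and Trim25 as members called in opposite directions with different isoforms, and Cmpk2 and Tlr3 as the members with the largest rises. They lie at chr3:142620513-142620662 (Gbp2), chr19:34640739-34640888 (Ifit1), chr11:88999253-88999402 (Trim25) and chr12:26469065-26469214 (Cmpk2) on the plus strand, and at chr8:45410381-45410530 (Tlr3) on the minus strand.
Gbp2: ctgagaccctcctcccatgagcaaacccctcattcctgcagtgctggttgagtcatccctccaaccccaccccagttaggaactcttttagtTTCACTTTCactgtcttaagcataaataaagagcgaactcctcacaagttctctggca
Ifit1: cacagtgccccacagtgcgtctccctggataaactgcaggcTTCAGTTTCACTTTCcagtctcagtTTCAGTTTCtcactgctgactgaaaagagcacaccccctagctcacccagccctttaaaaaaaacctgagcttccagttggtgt
Trim25: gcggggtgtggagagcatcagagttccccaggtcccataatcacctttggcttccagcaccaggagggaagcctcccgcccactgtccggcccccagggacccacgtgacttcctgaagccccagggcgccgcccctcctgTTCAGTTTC
Cmpk2: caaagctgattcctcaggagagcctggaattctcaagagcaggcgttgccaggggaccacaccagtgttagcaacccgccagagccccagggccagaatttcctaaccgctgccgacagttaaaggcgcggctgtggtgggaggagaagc
Tlr3: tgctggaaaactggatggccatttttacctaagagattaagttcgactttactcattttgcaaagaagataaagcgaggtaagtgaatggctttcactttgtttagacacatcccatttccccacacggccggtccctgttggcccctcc
Ifit1 had 3 matches in its 250 bases, of which the nearest ended 75 bases from the start. Gbp2 and Trim25 had 1 each, 49 and 0 bases from the start. Cmpk2 and Tlr3 had none in this window.

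Before any comparison, 1 control array stood apart. In GFP replicate 1 the members lay a median log2 of 0.37 above the mean of the other GFP arrays, and 33 of the 37 were higher there, while the median over all genes was −0.03. Xaf1, a pro-apoptotic interferon target, read 6.91 in GFP replicate 1 against 5.54 and 5.17 in replicates 2 and 3. Usp18, the protease that removes ISG15 and dampens receptor signalling, read 9.55 against 8.28 and 8.25. Ddx58, which encodes the RNA sensor RIG-I, read 9.14 against 8.32 and 8.12. Ranked by this excess over all 18820 genes, Xaf1, Usp18 and Ddx58 stood at ranks 2, 3 and 4, after Rtp4, another interferon target outside the list (6.65 against 4.90 and 4.60). The 10 genes with the largest excess included 5 members, and the 100 with the largest excess included 18. The excess did not extend to every member. Mx1, Mx2, Oas2 and Oas3 were lower in GFP replicate 1 than the mean of the others, at −0.15 to −0.03, and these 4 read between 3.50 and 4.17 on every array. The next highest array was FXRα2 replicate 1, at a median of 0.20 above its group with 33 of 37 members higher, led by Irf7 (0.73). Because GFP replicate 1 enters every comparison with GFP, each member call against GFP that was lost without it is given both ways, and counts over lists are given with and without it.

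**Figure D1:**
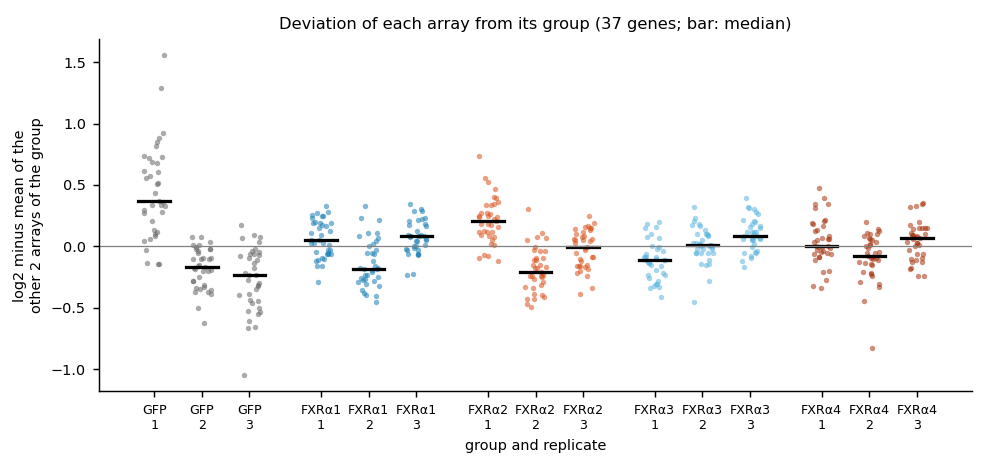
Each point is 1 of the 37 members, plotted as its log2 value in an array minus the mean of the other arrays of that group, and the bars are medians over members. GFP replicate 1 has the highest median, 0.37, and FXRα2 replicate 1 the next, 0.20.

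Against GFP, members fell more often than they rose with FXRα1 and FXRα3. With FXRα1, 12 members fell and 2 rose of 37, where 4.0% of all genes fell and 8.42% rose, and 33 of the 37 changes were negative with a median of −0.29 (all genes 0.00). FXRα3 also had 12 that fell and 2 that rose, where 6.62% of all genes fell and 7.45% rose, with a median of −0.29. With FXRα2, 5 fell and 5 rose (16.7% and 17.5% of all genes), shares below the background. With FXRα4, 10 fell and 3 rose (15.7% and 18.0% of all genes), with a median of −0.22. These calls are limma tests over all genes with Benjamini-Hochberg adjusted p under 0.05, and all 4 comparisons share the GFP arrays. In bulk RNA, fewer cells of a type and less RNA per cell cannot be told apart.

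Much of the fall went with GFP replicate 1. Without it, FXRα1 had 4 members that fell and 3 that rose (3.25% and 6.79% of all genes), and FXRα3 had 6 that fell and 3 that rose (5.09% and 6.03%). For FXRα2 the counts became 3 that fell and 9 that rose (15.5% and 16.1%). For FXRα4 they became 5 and 5 (14.5% and 16.3%). The losses were all among falls, 8 for FXRα1, 2 for FXRα2, 6 for FXRα3 and 5 for FXRα4, and every rise called with all arrays was called without it. The median change moved to −0.14, 0.07, −0.13 and −0.05 for FXRα1 to FXRα4. Of 14, 10, 14 and 13 calls for FXRα1 to FXRα4, 6, 7, 8 and 8 passed whichever single array of the comparison, GFP replicate 1 included, was left out. Centring each array on the median of its genes moved the median change of all genes by −0.10, −0.22, −0.04 and −0.21 for FXRα1 to FXRα4. The counts that fell and rose were then 19 and 2, 16 and 4, 14 and 2, and 23 and 2. They include a shift of all genes, whose medians were then −0.10, −0.27, −0.04 and −0.24, against −0.40, −0.27, −0.33 and −0.43 for members. The share of all genes called under this scaling was not computed. None of the 94 member calls over all comparisons changed direction under this or the other 3 scalings.

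**Figure D2:**
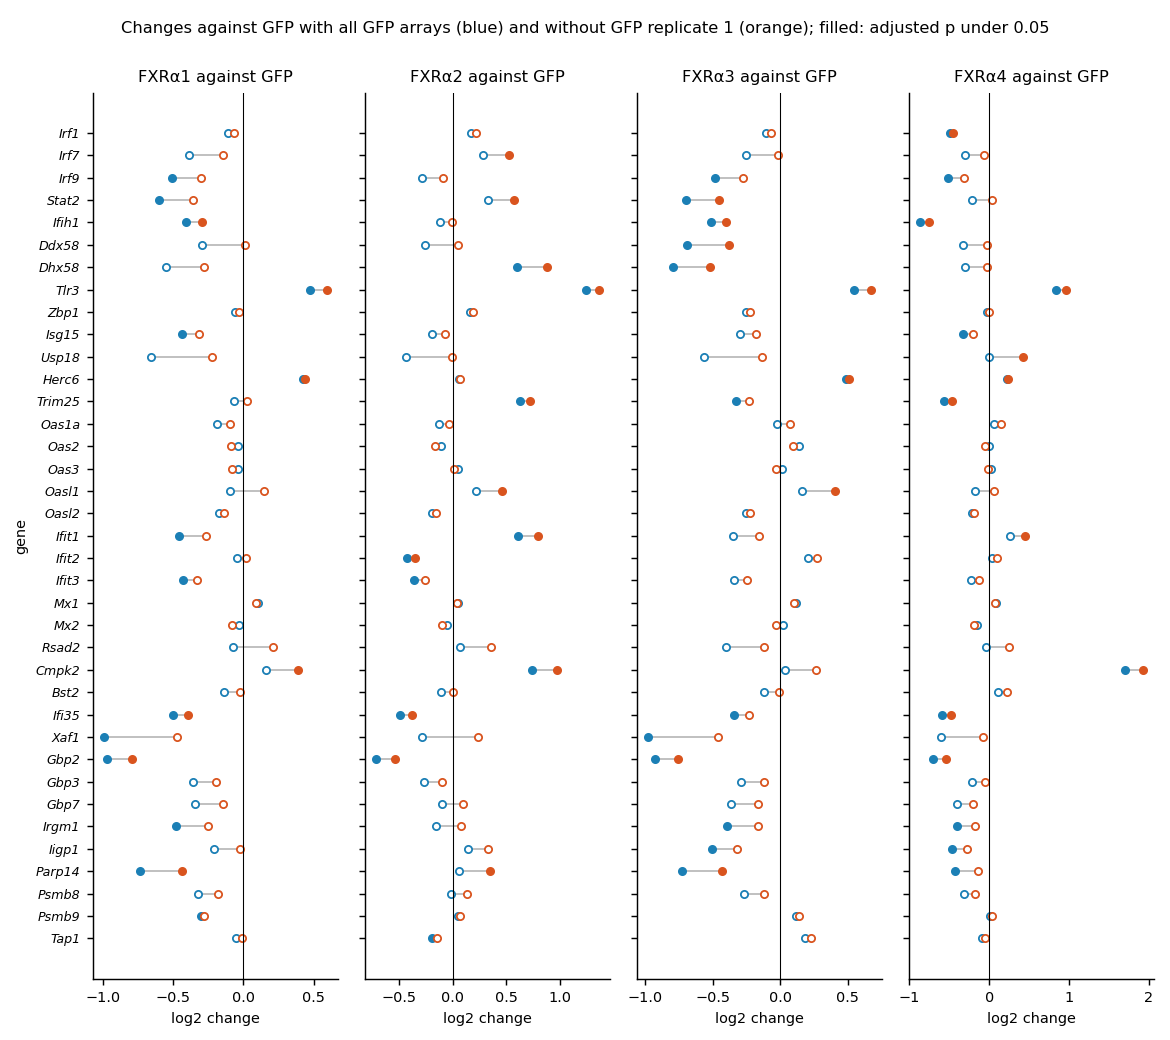
Log2 change of each of the 37 members against GFP, with all GFP arrays in blue and without GFP replicate 1 in orange, joined by a line; filled points have an adjusted p under 0.05, and the x axes of the 4 panels differ. Xaf1 and Usp18 move farthest, while Tlr3, Gbp2, Ifih1 and Herc6 move little for their size.

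Comparing isoforms with each other leaves the GFP arrays out of the difference. The GFP arrays, replicate 1 included, still entered the estimate of spread shared by all groups. For a pair or the interaction, only arrays of its own isoforms were left out in turn. FXRα2 and FXRα1, which differ by the MYTG insert on the shorter N-terminus, were the pair with the most members called: 11 were higher with FXRα2 and 2 lower, where 14.1% of all genes were higher and 17.1% lower. Here 30 of the 37 differences were positive, with a median of 0.25 (all genes −0.04). That median was 0.14 without FXRα2 replicate 1 and 0.13 with each array centred on the median of its genes. The pair on the longer N-terminus showed no such shift, with 5 members higher and 5 lower with FXRα4 than with FXRα3 (15.8% and 13.8% of all genes) and a median of 0.02. After centring on the median of the genes these counts were 10 and 3 for the first pair and 2 and 10 for the second. The median of all genes was then −0.16 in the first pair (members 0.13) and −0.19 in the second (members −0.16). The share of all genes called after that centring was not computed. FXRα4 against FXRα2 gave 2 higher and 9 lower (11.7% and 12.0% of all genes), with a median of −0.11, or −0.02 without FXRα2 replicate 1 and −0.31 without the genes below the median. FXRα3 and FXRα1 differed least, with 2 members higher and 0 lower (2.21% and 4.65% of all genes) and a median of 0.05. No difference in any of these 4 pairs passed for 21 of the 37 members, and 14 passed in none of the 8 pairwise comparisons. The matching shares of all genes were not computed, so these counts do not set the members apart from other genes. Fitted on the arrays of each pair alone, 14 members were higher and 2 lower with FXRα2 than with FXRα1. In such fits FXRα4 against FXRα3 gave 11 higher and 7 lower. FXRα4 against FXRα2 gave 3 and 10, and FXRα3 against FXRα1 gave 1 and 1. The shares of all genes called in those fits were not computed.

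**Figure D3:**
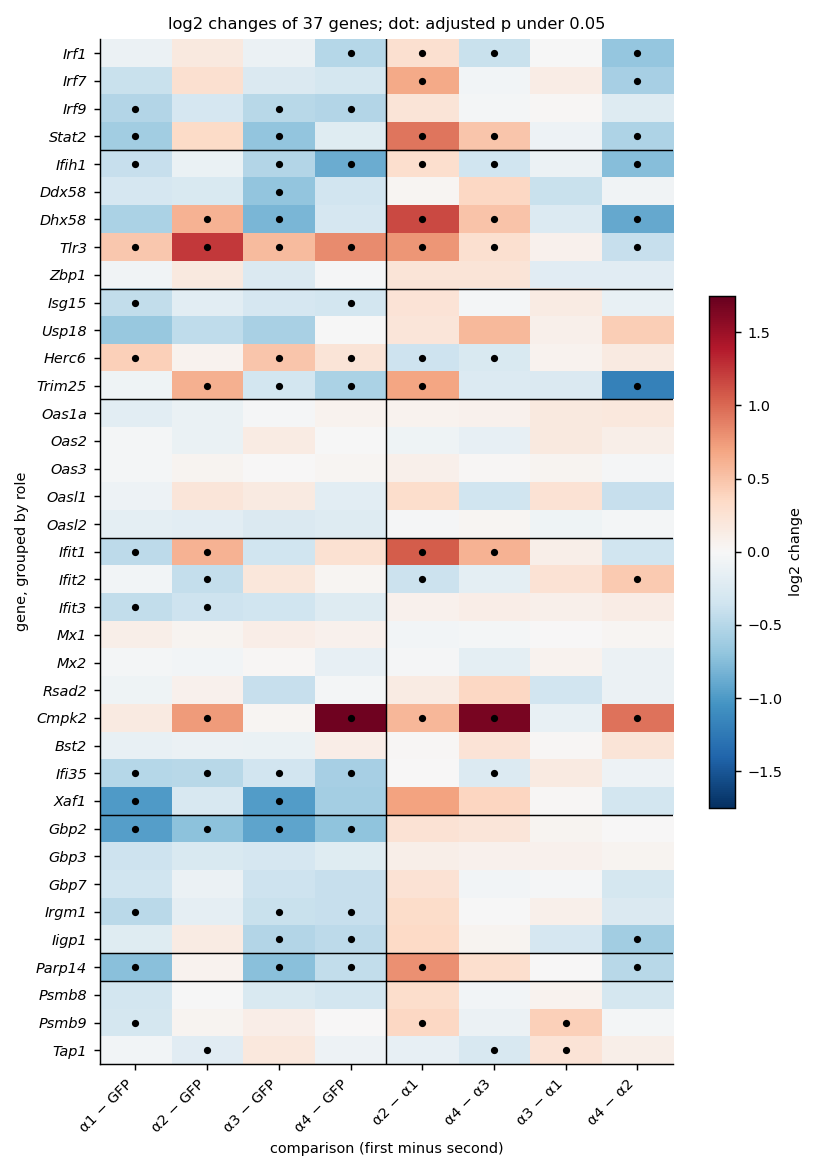
Log2 change of the 37 members (vertical axis, grouped by role and divided by lines) in 8 comparisons (horizontal axis, first group minus second), with red for higher and blue for lower; a dot marks an adjusted p under 0.05. The columns for FXRα1 and FXRα3 against GFP are mostly blue, Tlr3 is red in all 4 columns against GFP, and Gbp2 and Ifi35 are blue in all 4.

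Transcription factors of the response moved apart from each other. Irf1, which activates interferon and antigen-presentation genes, read 7.96, 7.86 and 7.82 with GFP, 8.13, 7.88 and 8.14 with FXRα2, and 7.42, 7.32 and 7.40 with FXRα4. All FXRα4 arrays were below every other array. Irf1 fell with FXRα4 by a log2 of 0.50 ± 0.08 (SE) against GFP (limma adjusted p = 4.029e-05, 1.41-fold), and was lower than with FXRα2 by −0.67 (adjusted p = 1.993e-06). With the other isoforms it did not pass against GFP (−0.11, 0.17 and −0.11). Stat2, the partner of IRF9 in the ISRE-binding complex, read 8.06, 7.43 and 7.21 with GFP. It read 7.18, 6.76 and 6.95 with FXRα1, 8.01, 7.75 and 7.93 with FXRα2, 6.76, 6.93 and 6.91 with FXRα3, and 7.33, 7.25 and 7.49 with FXRα4. The FXRα2 arrays lay above all arrays of the other isoforms, and GFP replicate 1 lay above them. Stat2 was 1.91-fold higher with FXRα2 than with FXRα1 (0.93 ± 0.15, adjusted p = 2.775e-05), and it passed in that pair whichever array was left out. Its falls against GFP, −0.60 with FXRα1 (adjusted p = 0.006827) and −0.70 with FXRα3 (adjusted p = 0.001702), became −0.36 (adjusted p = 0.0585) and −0.45 (adjusted p = 0.01297) without GFP replicate 1. Without that array it rose with FXRα2, by 0.58 (adjusted p = 0.0005619), where the change with all arrays was 0.33 and did not pass.

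The other transcription factors rested on single arrays. Irf9, the DNA-binding subunit of the ISRE complex, fell by 0.48 to 0.52 with FXRα1, FXRα3 and FXRα4, and none of these passed without GFP replicate 1 (−0.30, −0.28 and −0.31). Irf7, the amplifier of interferon alpha genes, read 6.66, 5.90 and 5.94 with FXRα2 and 5.61, 5.20 and 5.69 with FXRα1. Its difference of 0.67 (adjusted p = 0.009057) became 0.42 without FXRα2 replicate 1 (adjusted p = 0.09719) and 0.52 without FXRα1 replicate 2 (adjusted p = 0.05882). Against FXRα4 the FXRα2 level was higher, at −0.59 for FXRα4 (adjusted p = 0.02843), and −0.34 without FXRα2 replicate 1 (adjusted p = 0.2375).

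Among the sensors of foreign nucleic acid, Tlr3 rose with every isoform and Ifih1 fell with 3 of them. Tlr3, the endosomal receptor for double-stranded RNA, read 6.28, 6.04 and 5.77 with GFP, 6.46, 6.51 and 6.53 with FXRα1, 7.22, 7.20 and 7.38 with FXRα2, 6.52, 6.59 and 6.62 with FXRα3, and 6.73, 6.89 and 6.96 with FXRα4. Every isoform array was above every GFP array, GFP replicate 1 included. It rose 1.39-fold with FXRα1 (0.47 ± 0.11, adjusted p = 0.003333), 2.36-fold with FXRα2 (1.24 ± 0.11, adjusted p = 2.977e-09), 1.46-fold with FXRα3 (0.55 ± 0.11, adjusted p = 0.0007568) and 1.78-fold with FXRα4 (0.83 ± 0.11, adjusted p = 1.238e-06). It was the only member to rise with all 4, and without GFP replicate 1 the rises were 0.60, 1.36, 0.67 and 0.96. FXRα2 also stood above FXRα1 (0.77, adjusted p = 5.178e-06) and FXRα4 below FXRα2 (−0.41, adjusted p = 0.00628).

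Ifih1, which encodes the cytosolic RNA sensor MDA5, read 8.45, 8.20 and 8.03 with GFP and 8.22, 7.95 and 8.14 with FXRα2, groups that overlap. It read 7.45, 7.29 and 7.33 with FXRα4, below every other array, and fell there 1.83-fold (−0.87 ± 0.09, adjusted p = 1.2e-07). It also fell by 0.41 with FXRα1 (adjusted p = 0.00401) and by 0.51 with FXRα3 (adjusted p = 0.0004096). Leaving GFP replicate 1 out gave falls of 0.76, 0.30 and 0.40, each still past the threshold. FXRα4 was lower than FXRα3 by −0.35 (adjusted p = 0.005332) and lower than FXRα2 by −0.75 (adjusted p = 2.664e-06). FXRα2 was higher than FXRα1 by 0.29 (adjusted p = 0.02046), a call lost without FXRα1 replicate 2 (0.23) or FXRα2 replicate 1 (0.23) or replicate 3 (0.27) and under centring on the median of the genes (0.17).

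Dhx58, which encodes LGP2, a helicase that tunes RIG-I and MDA5, was called in opposite directions. It read 6.88, 6.23 and 5.89 with GFP, 5.95, 5.53 and 5.86 with FXRα1, 7.16, 6.68 and 6.98 with FXRα2, 5.33, 5.75 and 5.54 with FXRα3, and 5.85, 6.00 and 6.25 with FXRα4. The GFP arrays spread from within the FXRα1 range to within the FXRα2 range. Against FXRα1 the FXRα2 level was 2.23-fold higher (1.16 ± 0.19, adjusted p = 3.588e-05), and FXRα4 was lower than FXRα2 by −0.90 (adjusted p = 0.0008941). Both held whichever array was left out. The rise with FXRα2 against GFP was 0.60 (adjusted p = 0.01373), 0.88 without GFP replicate 1 and 0.39 without GFP replicate 3 (adjusted p = 0.1335). It was also lost without GFP replicate 2 (0.55) or FXRα2 replicate 1 (0.49). The fall with FXRα3 was −0.79 (adjusted p = 0.004449), or −0.52 without GFP replicate 1 (adjusted p = 0.04705). The difference of FXRα4 from FXRα3, 0.50 (adjusted p = 0.04864), was lost without any of 4 arrays (0.39 to 0.51 without FXRα3 replicate 1 or 3 or FXRα4 replicate 2 or 3). Ddx58 fell with FXRα3 alone, by 0.69 (adjusted p = 0.003319), and by 0.38 without GFP replicate 1 (adjusted p = 0.008898). Zbp1, a sensor of Z-form nucleic acid, passed in no comparison.

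**Figure D4:**
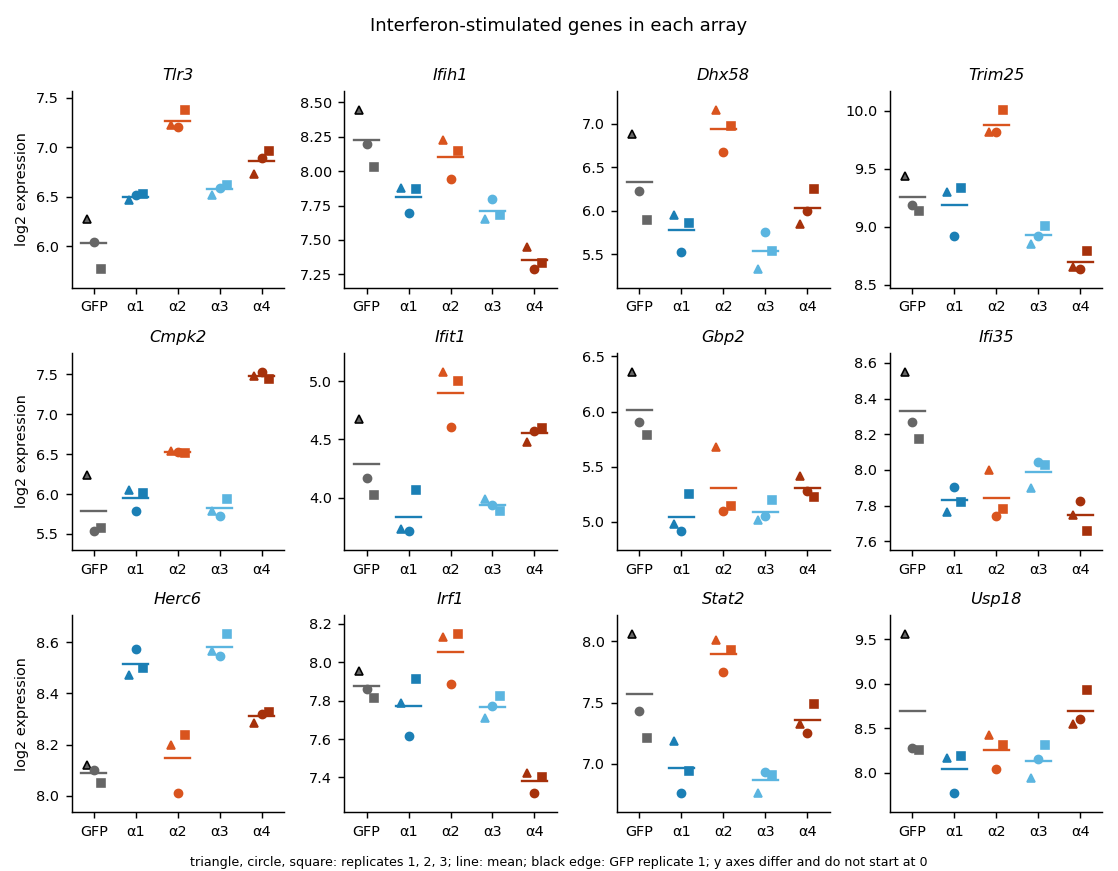
Log2 expression of 12 members in each of the 15 arrays, by group (GFP and the FXR isoforms α1 to α4), with triangles, circles and squares for replicates 1, 2 and 3, a line at the group mean and a black edge on GFP replicate 1; the y axes differ and do not start at 0. GFP replicate 1 lies above the other GFP arrays in all 12 panels, most of all for Usp18, and the FXRα4 arrays stand apart for Cmpk2 (7.44 to 7.53) and Irf1 (7.32 to 7.42).

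Of the 4 ISG15 conjugation genes, Trim25 and Herc6 were called most often. Trim25, an E3 ligase that activates RIG-I and can transfer ISG15, read 9.44, 9.18 and 9.14 with GFP and 9.30, 8.92 and 9.33 with FXRα1. It read 9.82, 9.82 and 10.01 with FXRα2, 8.86, 8.92 and 9.01 with FXRα3, and 8.65, 8.64 and 8.79 with FXRα4. The FXRα2 arrays were the highest of all 15 and the FXRα4 arrays the lowest. Trim25 rose 1.54-fold with FXRα2 (0.63 ± 0.09, adjusted p = 8.877e-06) and fell 1.47-fold with FXRα4 (−0.56 ± 0.09, adjusted p = 3.549e-05). The direct difference between FXRα4 and FXRα2 was 2.28-fold (−1.19 ± 0.09, adjusted p = 2.852e-09). FXRα2 was also higher than FXRα1, by 0.70 (adjusted p = 2.894e-06). The fall with FXRα3, −0.32 (adjusted p = 0.01847), was −0.23 without GFP replicate 1 (adjusted p = 0.1456), and did not pass without FXRα3 replicate 1 (−0.29) or 2 (−0.32).

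Herc6, the main ISG15 ligase of the mouse, was the least affected by GFP replicate 1 among these 4. It read 8.12, 8.10 and 8.05 with GFP, 8.47, 8.57 and 8.50 with FXRα1, 8.20, 8.01 and 8.24 with FXRα2, 8.56, 8.54 and 8.63 with FXRα3, and 8.29, 8.32 and 8.33 with FXRα4. Both isoforms with the insert lay above all other arrays. It rose with FXRα1 (0.42 ± 0.06, adjusted p = 4.398e-05), FXRα3 (0.49 ± 0.06, adjusted p = 7.141e-06) and FXRα4 (0.22 ± 0.06, adjusted p = 0.008233), and the last of these was 0.17 with each array centred on its median (adjusted p = 0.05326) and 0.01 with each centred on the median of its genes. It was lower with FXRα2 than with FXRα1 (−0.37, adjusted p = 8.241e-05) and with FXRα4 than with FXRα3 (−0.27, adjusted p = 0.00203). Isg15 itself, the modifier, fell with FXRα1 (−0.44, adjusted p = 0.01571) and FXRα4 (−0.33, adjusted p = 0.03771). These became −0.32 (adjusted p = 0.1237) and −0.21 (adjusted p = 0.2322) without GFP replicate 1, and Isg15 lay at 3.65 to 4.52 over the arrays. Usp18 passed in no comparison with all arrays, with group values of 8.16, 7.77 and 8.18 for FXRα1 and 8.55, 8.60 and 8.92 for FXRα4. It rose with FXRα4 without GFP replicate 1, by 0.43 (adjusted p = 0.01688), where the change with that array was 0.00.

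The OAS genes, whose products make the 2-5A messenger that activates RNase L or are relatives of those enzymes, gave 0 calls of 5 in the 8 pairwise comparisons. The share of all genes called in none of the 8 was not computed, so this count does not set the family apart. Oas1a, Oas2, Oas3 and Oasl2 read between 3.17 and 4.35 on every array, at percentiles 19.0 to 31.8 of all genes by mean level. Oasl1, a relative that restrains Irf7 translation, was brighter on its own scale, at 8.29, 7.62 and 7.50 with GFP and 7.96, 7.90 and 8.18 with FXRα2. It rose, once GFP replicate 1 was left out, with FXRα2 (0.46, adjusted p = 0.005214) and with FXRα3 (0.40, adjusted p = 0.0316), against 0.21 and 0.16 with all arrays.

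Of the 10 antiviral effectors, Cmpk2 had the largest change of any member. Cmpk2, a mitochondrial nucleotide kinase that neighbours Rsad2 in the genome, read 6.24, 5.54 and 5.58 with GFP and 6.04, 5.79 and 6.01 with FXRα1. It read 6.54, 6.52 and 6.52 with FXRα2, 5.79, 5.72 and 5.94 with FXRα3, and 7.48, 7.53 and 7.44 with FXRα4. Both isoforms without the insert lay above all other arrays, and FXRα4 above FXRα2. Cmpk2 rose 3.25-fold with FXRα4 (1.70 ± 0.13, adjusted p = 1.031e-09) and 1.67-fold with FXRα2 (0.74 ± 0.13, adjusted p = 0.0001139). In the isoform pairs, FXRα4 exceeded FXRα3 3.17-fold (1.66 ± 0.13, adjusted p = 2.508e-09), FXRα2 exceeded FXRα1 1.49-fold (adjusted p = 0.001696), and FXRα4 exceeded FXRα2 1.94-fold (adjusted p = 1.212e-05). All 5 held whichever array was left out. The rise with FXRα1 passed too without GFP replicate 1, at 0.39 (adjusted p = 0.01847) instead of 0.16. Rsad2, the neighbour, encodes viperin and passed in no comparison, with changes against GFP of −0.07, 0.07, −0.40 and −0.03.

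The IFIT genes, whose products bind foreign RNA, did not move together. Ifit1 read 4.67, 4.17 and 4.03 with GFP, 3.73, 3.71 and 4.06 with FXRα1, 5.08, 4.61 and 5.002 with FXRα2, 3.99, 3.94 and 3.89 with FXRα3, and 4.48, 4.58 and 4.60 with FXRα4. The groups without the insert lay above those with it, and GFP spanned the space between. Ifit1 was dim, at percentile 35.6 of all genes by mean level, and signal over background is not measured in these values. FXRα2 exceeded FXRα1 2.09-fold (1.06 ± 0.15, adjusted p = 4.626e-06) and FXRα4 exceeded FXRα3 1.53-fold (0.61 ± 0.15, adjusted p = 0.002232). It rose with FXRα2 against GFP by 0.61 (adjusted p = 0.001974). The fall with FXRα1, −0.46 (adjusted p = 0.0418), was −0.26 without GFP replicate 1 (adjusted p = 0.2927) and was also lost without FXRα1 replicate 1 (−0.40) or 2 (−0.40) or GFP replicate 2 (−0.51). The change with FXRα4 passed once GFP replicate 1 was left out, at 0.45 (adjusted p = 0.01462). Ifit2 read 4.93, 5.05 and 5.04 with FXRα2, below all its other arrays, which ran from 5.27 to 5.78. It fell there by 0.42 against GFP (adjusted p = 0.005412), and FXRα4 was higher than FXRα2 by 0.45 (adjusted p = 0.004902). Against FXRα1 the difference was −0.37 (adjusted p = 0.01425), or −0.34 without FXRα2 replicate 1 (adjusted p = 0.0619). Ifit3 fell with FXRα1 (−0.43) and FXRα2 (−0.36), and neither passed without GFP replicate 1 (−0.33 and −0.26), without GFP replicate 3 (−0.40 and −0.33), or, in turn, without FXRα1 replicate 2 or 3 (−0.37 and −0.41) or FXRα2 replicate 2 or 3 (−0.34 and −0.30).

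Ifi35, an interferon-induced leucine zipper protein, fell with all 4 isoforms. It read 8.55, 8.27 and 8.18 with GFP, against 7.76 to 7.90 with FXRα1, 7.74 to 7.998 with FXRα2, 7.90 to 8.05 with FXRα3 and 7.66 to 7.83 with FXRα4. All 12 isoform arrays were below all GFP arrays. The falls were 0.50 (adjusted p = 0.0003188), 0.49 (adjusted p = 0.0001143), 0.34 (adjusted p = 0.01032) and 0.59 (adjusted p = 1.284e-05) in that order. Without GFP replicate 1 they were 0.39, 0.38, 0.23 and 0.48, and the FXRα3 fall no longer passed (adjusted p = 0.1027), nor did it without FXRα3 replicate 1 (−0.29). FXRα4 lay below FXRα3 by −0.25 (adjusted p = 0.0394), a call lost without any of 4 arrays (−0.20 to −0.25). Xaf1 fell with FXRα1 (−0.99, adjusted p = 0.01603) and FXRα3 (−0.98, adjusted p = 0.01588), which became −0.47 (adjusted p = 0.1036) and −0.46 (adjusted p = 0.1083) without GFP replicate 1. The Xaf1 call was also lost without FXRα1 replicate 3 (−0.98) or FXRα3 replicate 1 (−0.84). Mx1 and Mx2, which encode dynamin-like GTPases, and Bst2, which tethers budding virus to the cell, passed in no comparison.

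Among the interferon-inducible GTPases, which attack the membranes around intracellular pathogens, Gbp2 fell with every isoform. It read 6.36, 5.91 and 5.78 with GFP, 4.98, 4.92 and 5.25 with FXRα1, 5.68, 5.10 and 5.14 with FXRα2, 5.02, 5.05 and 5.20 with FXRα3, and 5.42, 5.28 and 5.22 with FXRα4. Every isoform array was below every GFP array. The falls were 1.96-fold (−0.97 ± 0.15, adjusted p = 8.272e-05), 1.64-fold (−0.71 ± 0.15, adjusted p = 0.0006985), 1.90-fold (−0.93 ± 0.15, adjusted p = 0.0001348) and 1.64-fold (−0.71 ± 0.15, adjusted p = 0.0007126) with FXRα1 to FXRα4. Without GFP replicate 1 they were 0.80, 0.54, 0.76 and 0.54, all past the threshold, and Gbp2 was then the only member to fall with all 4. No isoform differed from another in Gbp2 by the test.

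The other GTPases fell against GFP only while GFP replicate 1 was included. Irgm1 fell with FXRα1, FXRα3 and FXRα4 (−0.48, −0.39 and −0.40), which became −0.25, −0.16 and −0.17 without it. Irgm1 was also lost without FXRα1 replicate 1 (−0.47), any FXRα3 array (−0.37 to −0.42) or FXRα4 replicate 1 or 2 (−0.38 and −0.37). Iigp1 fell with FXRα3 (−0.51) and FXRα4 (−0.46), which became −0.32 and −0.28 without GFP replicate 1. Those calls were lost, too, without FXRα3 replicate 1 (−0.56) or 2 (−0.35), or FXRα4 replicate 2 (−0.39) or 3 (−0.43). Iigp1 was lower with FXRα4 than with FXRα2 (−0.61, adjusted p = 0.008147), or −0.43 without FXRα2 replicate 1 (adjusted p = 0.07996). Gbp3 and Gbp7 passed in no comparison.

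Parp14, an ADP-ribosyl transferase, read 8.20, 7.39 and 7.25 with GFP, 6.92, 6.70 and 7.04 with FXRα1, 7.90, 7.56 and 7.57 with FXRα2, 6.76, 7.004 and 6.90 with FXRα3, and 7.13, 7.24 and 7.19 with FXRα4. The FXRα2 arrays lay above those of the other isoforms. FXRα2 exceeded FXRα1 1.73-fold (0.79 ± 0.16, adjusted p = 0.0004875). Against GFP it fell with FXRα1 (−0.73, adjusted p = 0.002922) and FXRα3 (−0.73, adjusted p = 0.002768), and by less without GFP replicate 1 (−0.44, adjusted p = 0.0156, and −0.43, adjusted p = 0.01512). The fall with FXRα4 (−0.43, adjusted p = 0.04396) was lost without any 1 FXRα4 array (−0.40 to −0.46) or GFP replicate 1 (−0.14). FXRα4 against FXRα2 (−0.49, adjusted p = 0.03018) was lost without any FXRα4 array (−0.46 to −0.52) or FXRα2 replicate 1 (−0.38). Without GFP replicate 1 Parp14 rose with FXRα2 by 0.35 (adjusted p = 0.02225).

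The antigen-processing members changed by less. Psmb9, a catalytic subunit of the immunoproteasome, read 6.34, 6.27 and 6.31 with FXRα1, below all 12 other arrays, which ran from 6.52 to 6.84. FXRα1 was below FXRα2 (0.36 for FXRα2, adjusted p = 0.004088) and below FXRα3 (0.42 for FXRα3, adjusted p = 0.00518), and both held whichever array was left out. Against GFP the fall of 0.30 (adjusted p = 0.02999) was lost without any 1 of 5 arrays (−0.28 to −0.32, the FXRα1 arrays and GFP replicates 1 and 2). Tap1, a subunit of the peptide transporter, read 8.46, 8.50 and 8.58 with FXRα3 and 8.23, 8.20 and 8.28 with FXRα4, and the latter was lower by −0.28 (adjusted p = 0.003383). Its other calls, −0.19 for FXRα2 against GFP (adjusted p = 0.03423; −0.15 without GFP replicate 1, −0.20 without replicate 3 and −0.13 without FXRα2 replicate 2) and 0.23 for FXRα3 against FXRα1 (adjusted p = 0.04392), each depended on single arrays, the second on 5 of 6 (0.19 to 0.26). Psmb8 passed in no comparison.

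Whether isoforms without and with the insert differed by unlike amounts on the longer and the shorter N-terminus was tested as an interaction. The interaction is the difference of FXRα4 from FXRα3 minus that of FXRα2 from FXRα1. It passed for 7 members, positive in 1 and negative in 6, where 7.24% of all genes were positive and 5.63% negative, and the median over members was −0.25, or −0.12 without FXRα2 replicate 1 and −0.16 without FXRα3 replicate 3. Cmpk2 was the positive one: it was higher without the insert by 1.66 on the longer N-terminus and by 0.58 on the shorter one, an interaction of 1.09 ± 0.19 (adjusted p = 0.0004488). Trim25 had the largest negative value, −0.93 ± 0.13 (adjusted p = 4.003e-05), from 0.70 on the shorter N-terminus and −0.24 on the longer. Irf1 gave −0.67 ± 0.12 (adjusted p = 0.0004258) and Ifih1 −0.64 ± 0.13 (adjusted p = 0.001987), each higher without the insert on the shorter N-terminus (0.28 and 0.29) and lower on the longer (−0.39 and −0.35). These 4 passed whichever array was left out. On the shorter N-terminus the Irf1 difference rested on FXRα1 replicate 2 and FXRα2 replicates 1 and 3, without which it was 0.20 to 0.24 and did not pass.

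Other genes of the pathway came from 5 lists of 110 genes, of which 94 were measured. The interferon genes themselves were dim, with 13 of 14 below the median gene, and Ifna12 gave the only call against GFP, with FXRα1 (0.48, adjusted p = 0.006948), which was lost without GFP replicate 1. Of the receptors, JAK kinases and STAT3, 4 of 10 rose and 3 fell with FXRα2 (17.5% and 16.7% of all genes), 4 rose and 2 fell with FXRα4 (18.0% and 15.7%), 1 rose and 1 fell with FXRα3 (7.45% and 6.62%), and 0 changed with FXRα1. These counts were the same without GFP replicate 1. Stat3 read 9.60, 9.54 and 9.57 with FXRα2, above all other arrays (0.29, adjusted p = 0.0001344), and 9.02, 8.90 and 9.01 with FXRα3, below all other arrays (−0.31, adjusted p = 0.0002256). The rise with FXRα2 was 0.07 and did not pass (adjusted p = 0.2668) with each array centred on the median of its genes. Ifngr2, a subunit of the interferon gamma receptor, fell with FXRα2 (−0.33, adjusted p = 4.382e-07) and FXRα4 (−0.31, adjusted p = 1.139e-06).

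Adaptors and kinases of the sensing arm had some of the clearest separations. Irf5, a transcription factor downstream of Toll-like receptors, read 6.81, 6.68 and 6.75 with GFP, 7.35 to 7.54 with FXRα1, 8.51 to 8.70 with FXRα2, 7.40 to 7.47 with FXRα3 and 8.32 to 8.61 with FXRα4. It rose with all 4, by 0.68, 1.85, 0.70 and 1.72 (largest adjusted p = 1.726e-06). Mavs, the mitochondrial adaptor of RIG-I and MDA5, read 9.18, 9.36 and 9.49 with GFP, 10.23, 10.08 and 10.16 with FXRα1 and 10.43, 10.42 and 10.39 with FXRα2. It rose with FXRα1 (0.81, adjusted p = 5.268e-09) and FXRα2 (1.07, adjusted p = 7.607e-12), while FXRα4 lay at 9.41 to 9.50. Its rise of 0.25 with FXRα3 was lost without GFP replicate 1 or FXRα3 replicate 3. Tbk1, the kinase that phosphorylates IRF3, read 8.0 to 8.12 with GFP, 7.33, 7.32 and 7.34 with FXRα2 and 6.89, 6.93 and 6.88 with FXRα4. It fell with FXRα2 (−0.72, adjusted p = 7.419e-09) and FXRα4 (−1.15, adjusted p = 5.514e-12). Ikbke, its relative, rose with all 4 isoforms, by 0.62, 0.90, 0.90 and 1.02 (largest adjusted p = 2.317e-06). Over this list of 16, 6 rose and 3 fell with FXRα1 (8.42% and 4.0% of all genes), 5 and 3 with FXRα2 (17.5% and 16.7%), 3 and 2 with FXRα3 (7.45% and 6.62%), and 4 and 5 with FXRα4 (18.0% and 15.7%). Without GFP replicate 1 the counts were 5 and 2 with FXRα1 and 2 and 1 with FXRα3, and the same as before with FXRα2 and FXRα4.

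Of the 11 feedback regulators measured, 2 rose and 1 fell with FXRα1 (8.42% and 4.0% of all genes), 6 and 2 with FXRα2 (17.5% and 16.7%), 1 and 1 with FXRα3 (7.45% and 6.62%), and 3 and 3 with FXRα4 (18.0% and 15.7%). Without GFP replicate 1 these became 1 and 0, 5 and 1, 1 and 1, and 2 and 2. Socs3, an inhibitor of JAK signalling, read 5.68, 5.83 and 5.57 with GFP and 6.98, 6.99 and 7.19 with FXRα2, a rise of 1.36 (adjusted p = 2.243e-09). It rose by 0.63 with FXRα3 and 0.80 with FXRα4, and its rise of 0.41 with FXRα1 (adjusted p = 0.01881) was lost without GFP replicate 1 or 3 or FXRα1 replicate 1, but its dimmer probe set passed only with FXRα4 among the 4 comparisons with GFP. Irf2, which competes with Irf1 for its sites, fell with all 4, by 0.20 with FXRα1 (adjusted p = 0.01887, lost without GFP replicate 1), 0.25 with FXRα2, 0.24 with FXRα3 and 0.55 with FXRα4 (adjusted p = 4.516e-08). Irf8 rose with FXRα2 (1.11, adjusted p = 5.307e-08) and FXRα4 (0.95, adjusted p = 5.66e-07).

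A further 43 interferon-stimulated genes outside the member list were counted in the same way. With FXRα1, 12 fell and 1 rose (4.0% and 8.42% of all genes). With FXRα3, 8 fell and 1 rose (6.62% and 7.45%). With FXRα2 the counts were 6 and 11 (16.7% and 17.5%), and with FXRα4 they were 9 and 7 (15.7% and 18.0%). Without GFP replicate 1 they were 7 that fell and 1 that rose with FXRα1, 4 and 2 with FXRα3, 4 and 12 with FXRα2, and 5 and 8 with FXRα4 (percentages of all genes as given for the members). FXRα2 was higher than FXRα1 for 16 and lower for 3 (14.1% and 17.1% of all genes). Cxcl10, a chemokine that draws T cells, read 7.46, 7.63 and 7.32 with GFP, 9.29, 9.17 and 9.07 with FXRα2 and 8.39, 8.78 and 8.51 with FXRα4, rises of 1.71 (adjusted p = 1.112e-11) and 1.09 (adjusted p = 1.652e-08). Isg20, an exonuclease, rose by 1.28 with FXRα2 (adjusted p = 4.478e-12) and 0.47 with FXRα4 (adjusted p = 1.67e-05), and its fall of 0.22 with FXRα3 (adjusted p = 0.04928) was lost without any 1 of 5 arrays. Lgals3bp, a secreted galectin ligand, read 10.12, 10.03 and 9.92 with GFP and 11.68, 11.60 and 11.65 with FXRα2, a rise of 1.62 (adjusted p = 9.618e-14). It also rose by 0.57 with FXRα3 and 0.95 with FXRα4, and its rise of 0.27 with FXRα1 (adjusted p = 0.01293) was lost without FXRα1 replicate 1 or GFP replicate 3 and under centring on the median of the genes (0.17). Znfx1, an RNA helicase, fell with FXRα2 by 0.47 (adjusted p = 9.205e-09), and by 0.22 in its dimmer probe set (adjusted p = 0.0483). Its brighter probe set also fell by 0.28 with FXRα1 (adjusted p = 5.518e-05) and by 0.29 with FXRα3 (adjusted p = 3.651e-05).

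**Figure D5:**
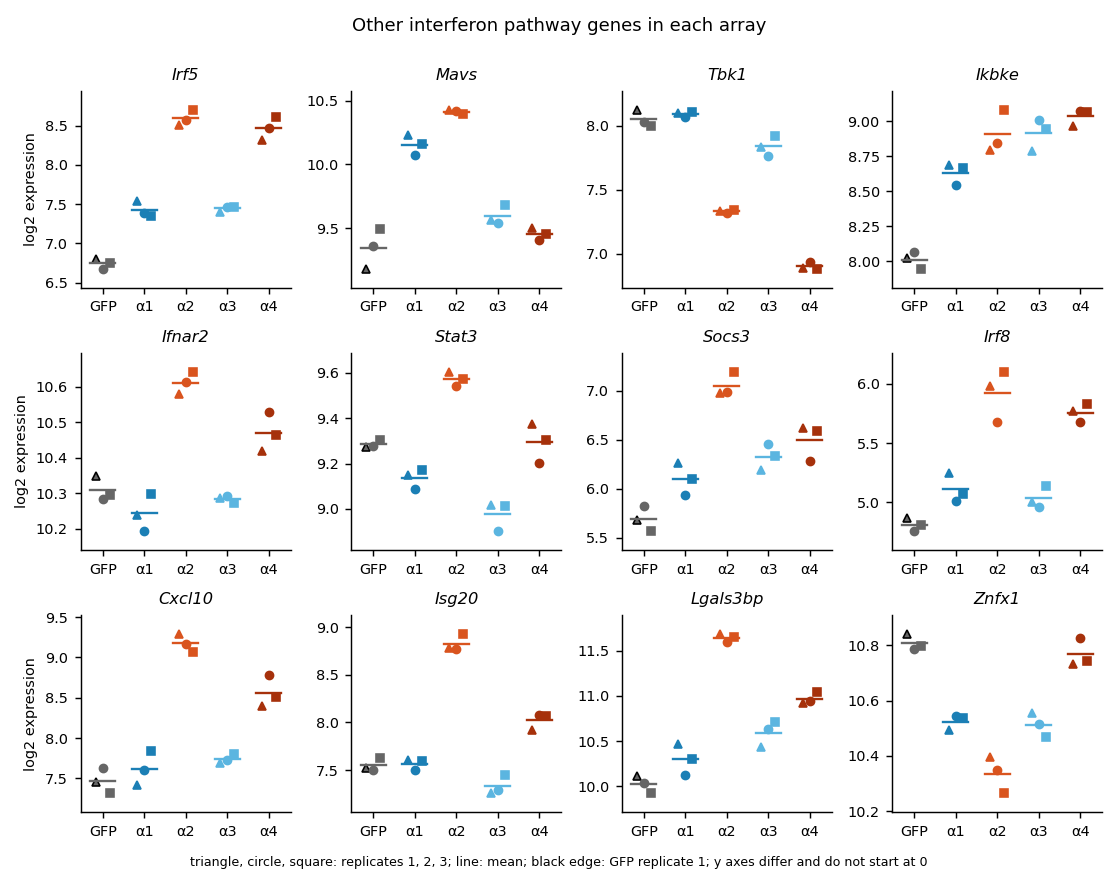
Log2 expression of 12 pathway genes outside the member list in each of the 15 arrays, by group, with triangles, circles and squares for replicates 1, 2 and 3, a line at the group mean and a black edge on GFP replicate 1; the y axes differ and do not start at 0. Irf5, Cxcl10, Isg20 and Lgals3bp have their highest mean with FXRα2, Tbk1 is lowest with FXRα4 (6.88 to 6.93), and GFP replicate 1 lies close to the other GFP arrays in most panels. These genes were named for small adjusted p-values, a rule that favours little spread within groups. Rtp4, Oas1b and Samd9l, pathway genes not shown, lay 1.90, 0.85 and 0.83 higher in GFP replicate 1 than the mean of the other GFP arrays.

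Cells other than hepatocytes can carry interferon-stimulated genes, so their markers are given beside these results. Kupffer cell and macrophage markers (13 measured) were higher in GFP replicate 1 than in the mean of the other GFP arrays for 1 of 13, with a median excess of −0.14. The same counts were 6 of 9 for hepatocyte markers (median 0.07), 4 of 5 for plasmacytoid dendritic cells (0.08), 5 of 10 for endothelial cells (0.00), 3 of 10 for stellate cells (−0.07), 2 of 11 for lymphocytes (−0.07) and 2 of 6 for neutrophils (−0.09). The summed linear level of the Kupffer cell markers was 625.7 to 682.3 with GFP, 586.3 to 694.1 with FXRα1, 697.7 to 747.2 with FXRα2, 600.6 to 636.6 with FXRα3 and 537.3 to 654.2 with FXRα4. Most of that sum was Cd68, which lay at a log2 of 8.48 to 9.12, and without Cd68 the sum was 185.7 to 205.2 with GFP and 178.7 to 210.3 over the isoform arrays. Of the 13, 1 (Timd4) rose with FXRα2, which was lost without GFP replicate 1, and 0 changed with the other isoforms. Plasmacytoid dendritic cell markers summed to 408.3 to 421.3 with GFP and 401.4 to 461.9 over the isoform arrays. The one of these 5 that rose, with FXRα2 and FXRα4, was Irf8. Of the 10 endothelial markers, Stab1 rose with FXRα1 (0.56), Stab2 rose with FXRα2 (0.30, lost without GFP replicate 1), and Oit3 fell with FXRα2, FXRα3 and FXRα4 (−0.995, −0.43 and −0.73). Of the 10 stellate cell markers, Reln rose with FXRα2 (0.55) and FXRα4 (0.97), and Acta2 fell with FXRα4 (−0.34), a call lost without GFP replicate 1. Of 11 lymphocyte and 6 neutrophil markers, 0 changed against GFP. Hepatocyte markers rose for 2, 6, 5 and 6 of 9 with FXRα1 to FXRα4 and fell for 1, 0, 1 and 0. Of all genes, 8.42%, 17.5%, 7.45% and 18.0% rose and 4.0%, 16.7%, 6.62% and 15.7% fell, the background for every marker list here. Leaving out GFP replicate 1 gave 3, 6, 5 and 6 that rose and 1, 0, 0 and 0 that fell. The shares of all genes were then 6.79%, 16.1%, 6.03% and 16.3% that rose and 3.25%, 15.5%, 5.09% and 14.5% that fell. The part of cell composition in the changes above was not tested.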

How the data were processed

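The deposited values are one number per probe set and array on a log2 scale, made by the authors. Their log base was inferred from their range. The submitters' processing notes name Affymetrix Expression Console 1.1 and PLIER and say nothing of their role, and normalization is not given in the sources used here. A single symbol was given by the array annotation for 21218 of 35556 probe sets (21185 matched by Entrez identifier), several for 1881 and none for 12457. This left 18820 genes, each read by its probe set with the highest mean.

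All 15 arrays and all genes entered 1 linear model of the 5 groups, fitted with limma 3.58.1 (lmFit and eBayes with a mean-variance trend) in R 4.3.3, after the steps were tested on simulated data. The 9 comparisons were 4 against GFP, 4 between isoforms and the interaction. Tests were two-sided, with Benjamini-Hochberg adjustment across all genes of a comparison. Rose, fell and changed mean an adjusted p under 0.05. Errors after ± are standard errors from the fit, with 3 arrays per group. Arrays were not paired by replicate number. The members, roles, pathway and marker lists were chosen with earlier results of these data known.

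Values per array are given by role for the member with the smallest adjusted p over the comparisons with GFP. The member with the smallest over the isoform pairs and members called in opposite directions are given too. Of these, Oasl2 and Iigp1 are given by range or log2 change alone. Stat2, Irf7, Ifit2, Ifi35 and those high in GFP replicate 1 were added after their values were seen. From each pathway list up to 4 genes with the smallest adjusted p over the 8 pairwise comparisons could be named. Rtp4, Oas1b and Samd9l were added. Alternatives were other variance models, filters on dim genes, 4 scalings, a linear offset of 16, a minimal fold of 1.5, every probe set, the replicate block and leaving out each array. The scaling that centres each array on the median of its genes was added after seeing the data. Python 3.11.15, pandas 2.3.3 and matplotlib 3.10.9 made the tables and figures.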

Additional observations from a re-analysis of the deposited data

Results flagged for a closer look

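The difference between isoforms without and with the MYTG insert was unlike on the longer and the shorter N-terminus for 7 members. The test was limma's interaction term with Benjamini-Hochberg adjusted p-values over all genes. The values are the log2 difference of FXRα4 from FXRα3 minus that of FXRα2 from FXRα1, with 3 arrays per group. Trim25 had −0.93 (adjusted p = 4.003e-05), Irf1 −0.67 (adjusted p = 0.0004258), Ifih1 −0.64 (adjusted p = 0.001987) and Cmpk2 1.09 (adjusted p = 0.0004488), and these passed whichever array was left out. Tlr3 had −0.48 (adjusted p = 0.03596), from 0.77 on the shorter N-terminus and 0.29 on the longer, and it passed with all arrays but not without any of 8 of the 12 isoform arrays (−0.51 to −0.41). Oasl1 had −0.65 (adjusted p = 0.04282), lost without any of 8 of the 12 (−0.68 to −0.55). Psmb9 had −0.46 (adjusted p = 0.02032), lost without FXRα2 replicate 1 (−0.38, adjusted p = 0.07555) or FXRα3 replicate 3 (−0.41, adjusted p = 0.0589).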

How the results depend on the processing

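With all arrays the members called were 14, 10, 14 and 13 for FXRα1 to FXRα4 against GFP, and in the isoform pairs 13 (FXRα2 less FXRα1), 10 (FXRα4 less FXRα3), 2 (FXRα3 less FXRα1) and 11 (FXRα4 less FXRα2), with 7 for the interaction. Leaving out 1 array at a time gave 7 to 17, 9 to 12, 8 to 17, 9 to 16, 9 to 16, 7 to 9, 1 to 2, 8 to 12 and 4 to 7 in that order. A fold of at least 1.5 left 4, 6, 6, 5, 7, 2, 0 and 7 in the 8 pairwise comparisons, fewer because the rule is stricter. Centring on the median of the genes gave 20 for FXRα2 and 25 for FXRα4 against GFP, where the medians of all genes were −0.27 and −0.24. That centring also turned Herc6 with FXRα2 from 0.06 to −0.16 (adjusted p = 0.02105). Usp18 with FXRα4 turned from 0.00 to 0.43 without GFP replicate 1 (adjusted p = 0.01688), and its lowest value without 1 array was −0.22. FXRα3 against FXRα1 gave 1 without a variance trend and 1 with every probe set tested. FXRα4 against FXRα3 gave 18 when fitted on its own arrays, and FXRα2 against GFP gave 6 without the genes below the median, where fewer members were tested. The cause of the other changes was not tested. Of 94 member calls, 91, 88, 94 and 90 were still called under median centring, centring on the median of the genes, 75th percentile centring and quantile normalization. With the replicate block the counts were 16, 11, 17, 15, 17, 14, 3, 15 and 8. The labels do not say what arrays of 1 replicate number share, and their deviations correlated above 0.1 in 3, 8 and 7 of 10 pairs for replicates 1, 2 and 3. Signal over background is not measured in these values.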
